A study of Homo sapiens with 8 samples.

Results

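The regions described here are autosomal EZH2 islands of the diffuse large B cell lymphoma line HT that overlapped no EZH2 island of the line SUDHL6 by 1 bp or more and overlapped HT H3K27me3 by at least 1 bp. The rule found 975 of the 2508 autosomal HT EZH2 islands (38.9%), and 58757 islands were in the 6 lists together. A further 11 islands that met the overlap limits lay on X or Y and were left out. The islands were chosen by the measured EZH2 of both lines and the measured H3K27me3 of HT, so the presence and absence of these there is a description and not a finding. HT H3K27me3 itself overlapped 48.8% of all autosomal HT EZH2 islands.

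Polycomb repressive complex 2 adds methyl groups to a lysine of the histone H3 tail, and EZH2 is the enzyme within it. The trimethylated product, H3K27me3, marks repressed chromatin and in many cell types lies over the promoters of silent developmental genes, whereas H3K4me3 marks the start of active or poised genes. Germinal centre B cells express EZH2 strongly, and SUDHL6 is known from other work to carry an activating point mutation in the catalytic domain of EZH2, which the labels do not give.

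ChIP-seq of EZH2, H3K27me3 and H3K4me3 was done in the HT line and in the SUDHL6 line, both established from this lymphoma and grown untreated in serum-supplemented RPMI medium. There was 1 library for a line with a given antibody, and its enriched islands on hg19 were deposited as 1 list, so no difference between the lines could be tested. Each line is 1 culture lineage and does not stand for a patient group. The 95% intervals in brackets are exact binomial (Clopper-Pearson), hold for counting error alone, and treat islands of 1 library as independent, which they are not. The sources used here do not give read depth, so a missing island means only that none was called. The score of an island is the authors' own value, and it was compared only within a list.

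By the rule HT carried EZH2 and H3K27me3 at these regions. Most of them held no called SUDHL6 H3K27me3, and among all autosomal HT EZH2 islands the share with it was lower still. SUDHL6 H3K27me3 overlapped 259 of the 975 regions, a share of 26.6% (23.8 to 29.5%), against 20.2% of all autosomal HT EZH2 islands. The share lay far below that of the 249 EZH2 islands present in both lines with HT H3K27me3, of which 187 or 75.1% (69.2 to 80.3%) had SUDHL6 H3K27me3. It lay above that of the 1244 HT-only EZH2 islands without HT H3K27me3, of which 43 or 3.46% (2.51 to 4.63%) had it. In the mirror class of 775 SUDHL6-only EZH2 islands with SUDHL6 H3K27me3, H3K27me3 of HT was present at 347 or 44.8% (41.2 to 48.4%). The HT-only regions had a median width of 3600 bp and the mirror class one of 5550 bp. The H3K27me3 lists had 16851 autosomal islands in HT and 13117 in SUDHL6. These classes differ by the presence of EZH2 or H3K27me3 islands that the rule used, so the choice of regions bears on the shares. The parts of that choice, of width and of list length in these shares were not tested. Among the HT-only regions themselves SUDHL6 H3K27me3 was present at 19.2% (14.3 to 24.97%) of the narrowest of 5 width groups and 35.3% (28.5 to 42.6%) of the widest. Where SUDHL6 H3K27me3 was present at an HT-only region, it covered a median of 53.6% of the island, against 77.8% at EZH2 islands of both lines. With an overlap of at least 50% of the EZH2 island asked of every list, the share of regions with SUDHL6 H3K27me3 was 16.6%.

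H3K4me3 was called at these regions more often in SUDHL6 than in HT. HT H3K4me3 overlapped 142 of the 975 regions or 14.6% (12.4 to 16.9%), against 33.9% of all autosomal HT EZH2 islands. SUDHL6 H3K4me3 overlapped 292 or 29.9% (27.1 to 32.9%), against 39.8% of all autosomal HT EZH2 islands. Both shares were thus below those of the whole list, and the SUDHL6 count was 2.06 times the HT count. At HT-only EZH2 islands without HT H3K27me3 the counts were nearly equal, with 640 in HT and 622 in SUDHL6 (51.4% and 50% of islands, a ratio of 0.97). At EZH2 islands of both lines with HT H3K27me3 the ratio was 1.5, with HT H3K4me3 at 38 islands (15.3%) and SUDHL6 H3K4me3 at 57 (22.9%). The HT share was thus close to that of the regions, and a low HT share was not particular to them. In the mirror class the ratio was 0.76, with H3K4me3 of HT at 62 islands (8%) and that of SUDHL6 at 47 (6.06%). The intervals of the mirror shares, 6.19 to 10.14% and 4.49 to 7.98%, overlapped. The SUDHL6 H3K4me3 list was the longer one, with 13281 autosomal islands against 10593 in HT. The rule asks for HT H3K27me3 and for no SUDHL6 EZH2, and so bears on the ratio. The parts of list length and of the rule in the ratio were not tested. With an overlap of at least 50% of the EZH2 island, H3K4me3 was present at 4.57% of the regions in HT and 12.7% in SUDHL6. Among the islands with the 50% highest scores of each list, it was present at 5.37% in HT and 20.2% in SUDHL6.

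**Figure D1:**
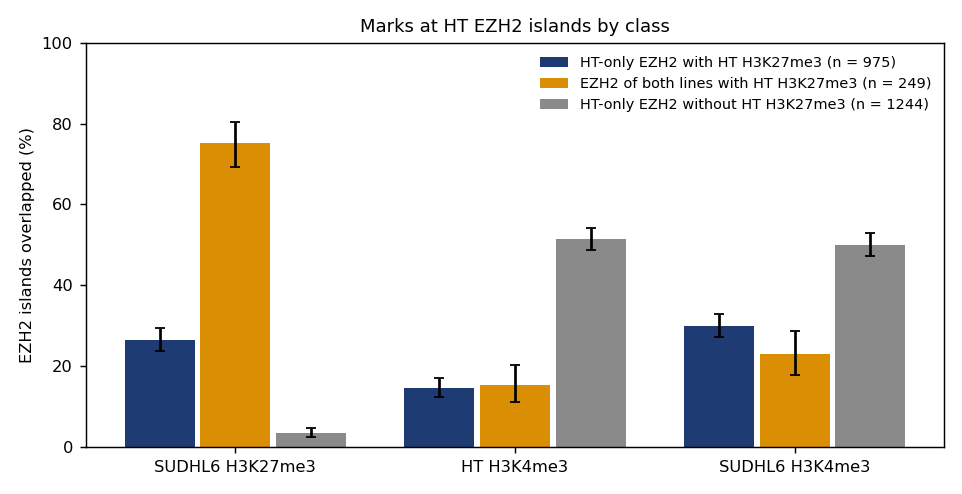
Share of HT EZH2 islands (y axis, %) overlapped by at least 1 bp of SUDHL6 H3K27me3, HT H3K4me3 or SUDHL6 H3K4me3, for 3 classes of HT EZH2 island. Bars are shares and error bars exact 95% intervals for counting error. SUDHL6 H3K27me3 stands at 26.6% of the HT-only regions with HT H3K27me3. It is at 75.1% for EZH2 of both lines and 3.46% for HT-only islands without HT H3K27me3. The classes differ by what the rule used, which bears on the shares.

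By the combination of the 3 other lists, the largest group of regions held no other called mark, with 456 or 46.8% (43.6 to 49.96%) of the 975. A further 203 or 20.8% (18.3 to 23.5%) held SUDHL6 H3K27me3 and no H3K4me3 of either line. SUDHL6 H3K4me3 alone was present at 148 or 15.2% (12.98 to 17.6%). No SUDHL6 H3K27me3 was called there, and the HT EZH2 and H3K27me3 are given by the rule. H3K4me3 of both lines without SUDHL6 H3K27me3 was present at 93 or 9.54% (7.77 to 11.6%). Each of the remaining 4 combinations held 26 regions or fewer, down to 5 with SUDHL6 H3K27me3 and HT H3K4me3. These combinations were counted in the 975 regions only, so no share over all HT EZH2 islands stands beside them. H3K4me3 of neither line was called at 659 regions, or 67.6% (64.6 to 70.5%), against 42.9% (40.2 to 45.7%) of HT-only EZH2 islands without HT H3K27me3, 72.7% (66.7 to 78.1%) of EZH2 islands of both lines with it and 55.02% of all HT EZH2 islands. The share of the regions thus lay above that of HT-only islands without HT H3K27me3 and below that of EZH2 islands of both lines, with intervals that overlapped for the islands of both lines.

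The 174 regions with H3K4me3 in SUDHL6 and not in HT made up 17.8% (15.5 to 20.4%), whereas 24 regions or 2.46% (1.58 to 3.64%) had it in HT and not in SUDHL6. Over all autosomal HT EZH2 islands the shares were 11.04% for SUDHL6 alone and 5.22% for HT alone. Among HT-only EZH2 islands without HT H3K27me3 these shares were 5.63% (4.41 to 7.06%) for SUDHL6 alone and 7.07% (5.71 to 8.64%) for HT alone. At EZH2 islands of both lines with HT H3K27me3 they were 12.05% (8.28 to 16.8%) for SUDHL6 alone and 4.42% (2.23 to 7.77%) for HT alone. The HT-only regions with H3K27me3 therefore held the largest share of SUDHL6-alone H3K4me3 among these 3 classes. Its interval overlapped that of the EZH2 islands of both lines. The classes differ by what the rule used, which bears on these shares. Of the 174 regions, 26 also had SUDHL6 H3K27me3, and regions of this kind lay on all 22 autosomes. HT H3K4me3 lay a median of 87.98 kb away from them and came within 10 kb at 13 (7.47%). Within 10 kb but without overlap it lay at 6.87% of all 975 regions and 9.73% of all autosomal HT EZH2 islands. Those totals include islands that overlap HT H3K4me3, which the 174 by definition do not. The share with H3K4me3 in SUDHL6 alone was 10.3% with an overlap of at least 50% of the EZH2 island. Of the 142 regions with HT H3K4me3, 118 or 83.1% (75.9 to 88.9%) also had that of SUDHL6, close to the 84.6% (720 of 851) of all autosomal HT EZH2 islands with HT H3K4me3. SUDHL6 H3K4me3 was present at 19.7% (15.03 to 25.1%) of the regions with SUDHL6 H3K27me3 and 33.7% (30.2 to 37.3%) of those without.

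Counted in bases, in the 174 regions SUDHL6 H3K4me3 covered 47.0% of the EZH2 islands' length, and 84.9% of those bases lay in HT H3K27me3, against 74.5% of all bases of the same islands. In the 118 regions with H3K4me3 of both lines, 50.6% of the HT H3K4me3 bases and 53.6% of the SUDHL6 H3K4me3 bases lay in HT H3K27me3, against 54.4% of all bases. H3K27me3 of HT thus covered more of the SUDHL6 H3K4me3 bases where that mark was called in SUDHL6 alone than in both lines. In the 24 regions with H3K4me3 of HT alone, 71.8% of its bases lay in HT H3K27me3, against 68.8% of all bases. EZH2 islands of both lines with HT H3K27me3 had the same order, at 77.4% for SUDHL6 alone and 50.2% for both lines. All bases of those islands stood at 80.03% and 62.3%, so both shares lay below that of all bases. The relation to all bases for SUDHL6 alone was thus opposite to that in the 174 regions. HT H3K27me3 was part of how the regions were chosen, so these shares are a description. SUDHL6 H3K27me3 lay largely inside that of HT, with 88.3% of its bases in the 975 regions covered by HT H3K27me3, against 73.1% of all bases of the regions.

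All marks but SUDHL6 EZH2 were most frequent near the centres of the regions. At the centre HT H3K27me3 covered 86.4% of the regions, SUDHL6 H3K4me3 20.7%, SUDHL6 H3K27me3 15.8% and HT H3K4me3 9.54%. At 10 kb to either side the average coverage was 12.3% for HT H3K27me3, 6.87% for SUDHL6 H3K27me3, 1.38% for SUDHL6 H3K4me3 and 1.23% for HT H3K4me3. SUDHL6 H3K27me3 was therefore the flatter of the SUDHL6 marks, at 5.72% still at 20 kb, where SUDHL6 H3K4me3 was at 1.49%. Around EZH2 islands of both lines, SUDHL6 H3K27me3 covered 59.4% at the centre and 13.96% at 20 kb.

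**Figure D2:**
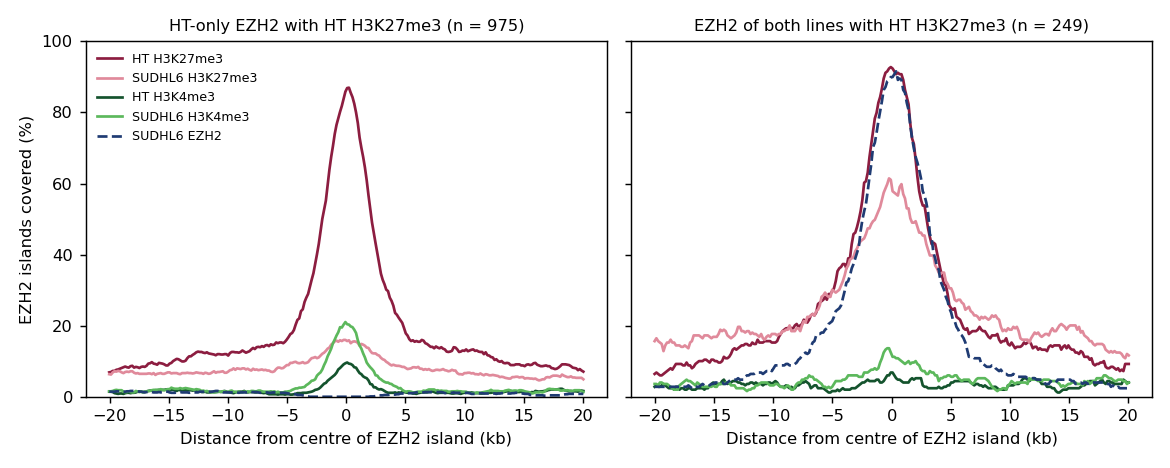
Share of EZH2 islands (y axis, %) whose position at a given distance from the island centre (x axis, kb) lies in an island of each list, for the HT-only regions with HT H3K27me3 on the left and EZH2 islands of both lines with HT H3K27me3 on the right. In the left panel SUDHL6 H3K4me3 peaks at 21.0% within 0.1 kb of the centre, above SUDHL6 H3K27me3, and in the right panel SUDHL6 H3K27me3 and SUDHL6 EZH2 reach 61.4% and 91.6%.

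The 975 regions covered 4.08 Mb, with a median width of 3600 bp and a range of 600 to 25350 bp. The median was 3450 bp for HT-only islands without HT H3K27me3 and 4650 bp for EZH2 islands of both lines with HT H3K27me3. A width of 10 kb or more was reached by 2.15% (1.34 to 3.27%) of the regions, 3.05% (2.17 to 4.17%) of HT-only islands without HT H3K27me3, and 8.43% (5.30 to 12.6%) of EZH2 islands of both lines with HT H3K27me3. The score divided by width in kb, used here to set islands of unlike width side by side without knowing what the score counts, had a median of 16.5 in the regions (quartiles 14.1 and 19.9). The medians were 13.3 for HT-only islands without HT H3K27me3 and 18.3 for EZH2 islands of both lines with HT H3K27me3. The HT-only regions with H3K27me3 thus lay between the other classes in score per kb, and the range between their quartiles overlapped that of each.

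HT H3K27me3 covered most of a typical region, beyond the 1 bp that the rule asked for. The median coverage was 81.0% of the EZH2 island (quartiles 58.3 and 100%), and 817 regions (83.8%) were covered over at least 50% of their length. At EZH2 islands of both lines the median coverage was 88.9%. The EZH2 island lay wholly inside a wider H3K27me3 island at 284 regions (29.1%) and wholly around its H3K27me3 island at 240 (24.6%). At 446 (45.7%) it was offset and reached past an end of it, and at 5 the start and end were identical. The centres of the EZH2 island and of its H3K27me3 island were a median of 825 bp apart. Of the 975 regions, 81 met 2 or more H3K27me3 islands. Neither layout, EZH2 inside the mark or around it, took in most of the regions.

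H3K4me3 was more frequent where HT H3K27me3 covered less of the region. With the regions put in order of coverage, HT H3K4me3 was present at 34.4% (27.7 to 41.5%) of the 195 with the least HT H3K27me3 (2.33 to 53.8% of the island) and at 4.64% (2.77 to 7.23%) of the 388 with the most (89.2 to 100%). SUDHL6 H3K4me3 was present at 44.6% (37.5 to 51.9%) and 23.2% (19.1 to 27.7%). SUDHL6 H3K27me3 ran the other way, with 19.5% (14.2 to 25.8%) among the least covered and 31.4% (26.9 to 36.3%) among the most covered. HT H3K27me3 was part of how the regions were chosen, so these shares are a description. The median width was 4200 bp in the least covered and 3150 bp in the most covered group, and its part in the shares was not tested.

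SUDHL6 H3K4me3 was most frequent at the regions with the highest HT EZH2 score per kb. In 5 groups of about equal size by EZH2 score per kb, SUDHL6 H3K4me3 was present at 20.5% (15.1 to 26.9%) of the lowest group (score per kb 8.60 to 13.6). The next 3 groups held it at 27.2%, 27.1% and 32.1%, and the highest (20.8 to 41.5) at 42.8% (35.7 to 50.1%). HT H3K4me3 was present at 11.3% (7.21 to 16.6%) of the lowest and 13.4% (8.95 to 19.0%) of the highest group, and SUDHL6 H3K27me3 at 19.5% (14.2 to 25.8%) and 25.3% (19.3 to 32.0%). The intervals of the end groups overlapped for these marks. The gradient of SUDHL6 H3K4me3 was seen at either width. Among regions over the median width SUDHL6 H3K4me3 was at 26.99% (20.3 to 34.5%), 31.5% (24.4 to 39.2%) and 52.5% (44.5 to 60.4%) of 3 groups from lowest to highest score per kb. At or under the median width the shares were 15.95% (10.7 to 22.5%), 21.5% (15.4 to 28.6%) and 31.5% (24.4 to 39.2%). The group with the highest score per kb lay 22.3 percentage points above the lowest over all regions, with an approximate interval of 12.8 to 31.4 that combines the exact limits of both shares by the root of their summed squares. Among islands with the 50% highest scores of each list it lay 11.5 points above (0.655 to 22.1 by the same approximation).

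The gradient was not particular to these regions. At HT-only EZH2 islands without HT H3K27me3, SUDHL6 H3K4me3 was present at 25.5% (20.2 to 31.4%) of the lowest and 61.8% (55.5 to 67.9%) of the highest group, and HT H3K4me3 at 29.1% (23.5 to 35.1%) and 62.7% (56.3 to 68.7%). At EZH2 islands of both lines with HT H3K27me3, SUDHL6 H3K4me3 was present at 14% (5.82 to 26.7%) and 36% (22.9 to 50.8%), and HT H3K4me3 at 16% (7.17 to 29.1%) and 18% (8.58 to 31.4%). The shares of HT H3K4me3 thus stood apart by score per kb at HT-only islands without HT H3K27me3, and their intervals overlapped in both classes with it. The difference between these gradients was not tested.

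**Figure D3:**
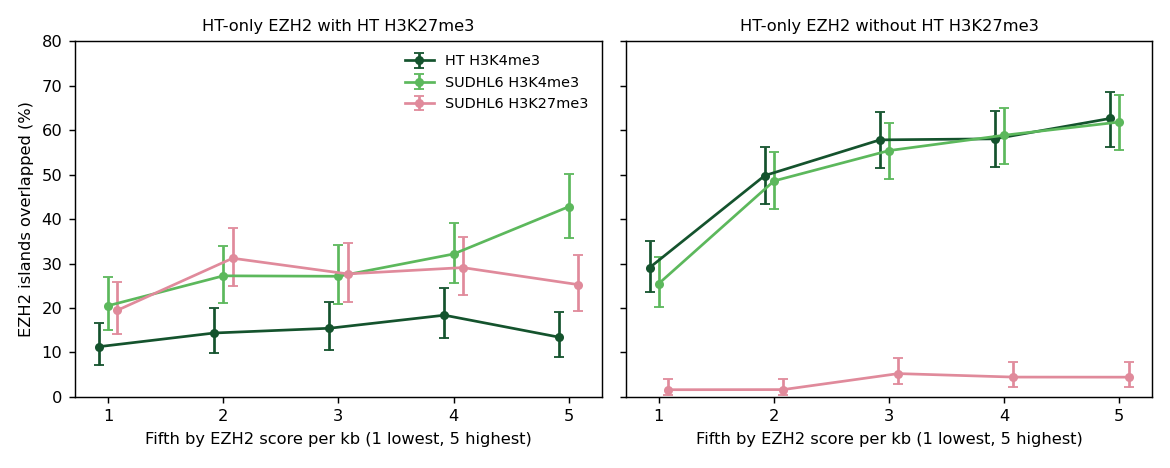
Share of EZH2 islands (y axis, %) overlapped by each list in 5 groups of about equal size by the EZH2 score per kb (x axis, 1 the lowest and 5 the highest), for HT-only islands with HT H3K27me3 on the left and without it on the right. Points are shares and bars exact 95% intervals; on the left SUDHL6 H3K4me3 runs from 20.5% to 42.8% while HT H3K4me3 stays between 11.3% and 18.4%.

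Seen from HT H3K27me3, the regions lay in 1038 H3K27me3 islands, 6.16% (5.80 to 6.53%) of the 16851 on the autosomes. The share was higher in wider islands, at 1.36% (0.764 to 2.24%) of those under 1 kb, 12.3% (10.9 to 13.7%) at 5 to 10 kb and 17.0% (8.07 to 29.8%) of the 53 islands of 20 kb or wider. The 1038 islands had a median width of 3750 bp and a median score per kb of 25.4. The 15548 H3K27me3 islands without HT EZH2 had a median width of 2400 bp and a median score per kb of 19.6. The 265 H3K27me3 islands with EZH2 of both lines held no region. They had the highest medians of these 3 sets, 5100 bp and 28.5 per kb. An H3K27me3 island with both kinds of EZH2 island was counted among the 1038 alone, here and below. A wider island is more readily met by an overlap of 1 bp, so the order of the widths is not independent of the rule.

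SUDHL6 H3K4me3 overlapped 27.7% (25.04 to 30.6%) of the 1038 H3K27me3 islands with HT-only EZH2 and 1.81% (1.61 to 2.04%) of those without HT EZH2, against 3.71% of all HT H3K27me3 islands. HT H3K4me3 overlapped 12.9% (10.9 to 15.1%) and 1.15% (0.990 to 1.33%), against 2.05% of all. The contrast in SUDHL6 H3K4me3 was seen in each width class from 1 to 20 kb, with 30.5% (23.03 to 38.8%) and 1.70% (1.35 to 2.11%) at 1 to 2 kb and 29.3% (23.8 to 35.3%) and 1.97% (1.36 to 2.74%) at 5 to 10 kb. H3K27me3 islands with EZH2 of both lines also had it often, at 20.8% (16.0 to 26.1%), so a high share was shared by both kinds of H3K27me3 island with HT EZH2.

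For SUDHL6 H3K27me3 the contrast was smaller. It overlapped 28.1% (25.4 to 31.0%) of the H3K27me3 islands with HT-only EZH2 and 19.9% (19.3 to 20.5%) of those without HT EZH2, against 21.3% of all. Within width classes the shares were close, at 28.2% (23.7 to 33.0%) and 27.5% (26.1 to 28.9%) for islands of 3 to 5 kb and at 43.4% (37.2 to 49.7%) and 41.1% (38.8 to 43.5%) for islands of 5 to 10 kb. At 10 to 20 kb they were 60.4% (45.3 to 74.2%) and 47.1% (40.6 to 53.6%), and the intervals overlapped in each of these width classes. H3K27me3 islands with EZH2 of both lines had SUDHL6 H3K27me3 at 74.7% (69.0 to 79.8%). The rule keeps SUDHL6 EZH2 out of the EZH2 regions, though not out of the rest of an H3K27me3 island, and bears on this comparison.

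**Figure D4:**
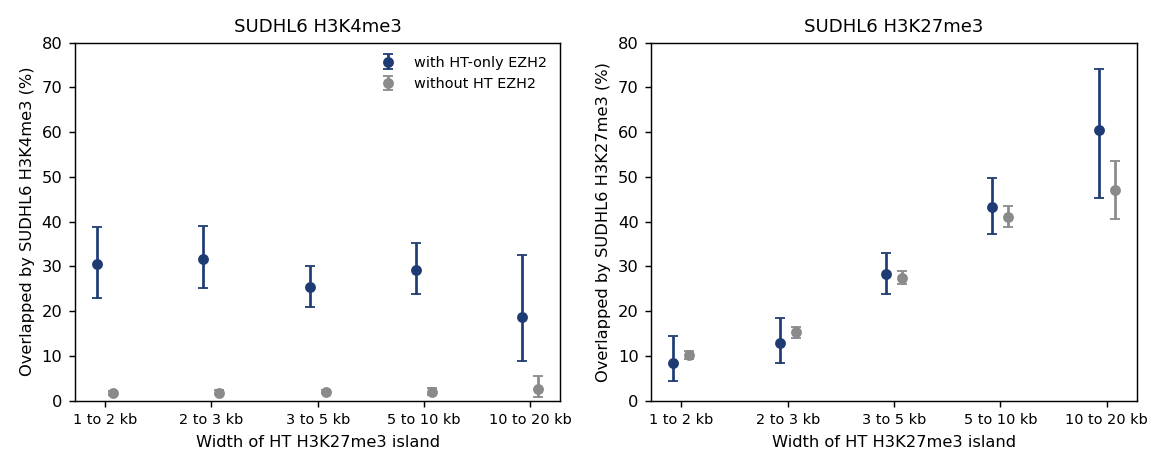
Share of HT H3K27me3 islands (y axis, %) overlapped by SUDHL6 H3K4me3 on the left and by SUDHL6 H3K27me3 on the right, by island width (x axis), for islands with HT-only EZH2 and for those without HT EZH2. Points are shares and bars exact 95% intervals; on the left the classes stand apart at every width shown (29.3% and 1.97% at 5 to 10 kb), and on the right they lie close up to 10 kb (43.4% and 41.1% at 5 to 10 kb).

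The SUDHL6 islands met by the regions were close to the rest of their lists in median width and score per kb. The 294 SUDHL6 H3K4me3 islands met had a median width of 2250 bp and a median score per kb of 32.4, against 2100 bp and 32.0 for those not met. They overlapped HT H3K4me3 less often, at 41.5% (35.8 to 47.4%) against 59.6% (58.8 to 60.5%). The 288 SUDHL6 H3K27me3 islands met had a median of 3300 bp and 20.7 per kb, against 3000 bp and 20.2 for those not met. The 144 HT H3K4me3 islands met had a lower score per kb than the rest of their list, with medians of 28.1 and 34.4, at the same median width of 2100 bp.

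The median distance to SUDHL6 EZH2, whose absence from the regions is part of the rule, was near that of the other HT-only islands. Short distances were more frequent at the regions. The median to the nearest SUDHL6 EZH2 island was 569 kb, against 573 kb for HT-only islands without HT H3K27me3 and 432 kb for all HT EZH2 islands. No SUDHL6 EZH2 lay within 1 Mb of 386 regions (39.6%, 36.5 to 42.7%), against 40.4% and 35.4% in these classes. SUDHL6 EZH2 lay within 10 kb of 48 regions, or 4.92% (3.65 to 6.47%), against 1.69% (1.05 to 2.57%) of HT-only islands without HT H3K27me3. Within 100 kb the shares were 20.4% (17.9 to 23.1%) and 14.7% (12.8 to 16.8%). Regions with SUDHL6 H3K27me3 were nearer to SUDHL6 EZH2 than those without, with medians of 185 kb and 869 kb. It came within 100 kb of 38.2% (32.3 to 44.4%) of the regions with SUDHL6 H3K27me3 and 13.97% (11.5 to 16.7%) of those without. SUDHL6 H3K27me3 lay within 10 kb of a further 133 regions without overlap (13.6%, 11.5 to 16.0%), against 7.88% of HT-only islands without HT H3K27me3 and 9.97% of all HT EZH2 islands.

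The regions were spread over all 22 autosomes with a share near chromosome ends close to that of the length. Chromosome 1 held 113, chromosome 6 held 74 and chromosome 17 held 67, and per length chromosome 17 was highest at 0.83 per Mb and chromosome 18 lowest at 0.19. They made up 54.4% (41.9 to 66.5%) of the HT EZH2 islands on chromosome 4 and 50% (38.6 to 61.4%) on chromosome 8. At the low end they made up 31.9% (23.4 to 41.3%) on chromosome 16, and the intervals of 21 of the 22 autosomes held the value over all autosomes. Among the regions, those with SUDHL6 H3K27me3 ranged from 8% on chromosome 13 (2 of 25) to 40% on chromosome 18 (6 of 15). Those with SUDHL6 H3K4me3 ranged from 11.1% on chromosome 22 (2 of 18) to 63.6% on chromosome 21 (7 of 11). The outer 10 Mb of the autosomes held 15.7% (13.5 to 18.1%) of the regions and made up 15.3% of the length, and the shares of HT-only islands without HT H3K27me3 (15.5%) and of all HT EZH2 islands (16.7%) were close to it. EZH2 islands of both lines with HT H3K27me3 lay there at 25.3% (20.02 to 31.2%) and the mirror class of SUDHL6 at 52.1% (48.5 to 55.7%). Regions with SUDHL6 H3K27me3 lay there at 22.4% (17.5 to 27.97%), against 13.3% (10.9 to 16.0%) of those without. Copy number was not measured, and its part in the counts per chromosome was not tested.

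The widest region lay on chromosome 5 from 139026151 to 139051500. It was 25.35 kb wide, had the highest score of all regions (529) and was covered over 77.5% by HT H3K27me3, and SUDHL6 H3K4me3 covered 15.4% of it. The next lay on chromosome 16 from 30209101 to 30228600 (19.5 kb), with 24.6% under HT H3K27me3 and 40.8% under SUDHL6 H3K4me3. A region on chromosome 9 from 69772351 to 69790800 (18.45 kb) had HT H3K27me3 over 65.0%, HT H3K4me3 over 35.0% and SUDHL6 H3K4me3 over 44.7% of its length. Among the 10 widest, of 12.3 to 25.35 kb, 5 had SUDHL6 H3K27me3, 4 SUDHL6 H3K4me3 and 2 HT H3K4me3. Over all 975 regions these shares were 26.6%, 29.9% and 14.6%. The 10 highest scores, from 260 to 529, included 6 of the 10 widest.

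Wide regions without any SUDHL6 island included one on chromosome 15 from 60285601 to 60302400 (16.8 kb), covered over 85.7% by HT H3K27me3. Those wholly under HT H3K27me3 and free of SUDHL6 marks were led by chromosome 16 from 27411301 to 27418950 (7.65 kb) and chromosome 17 from 16872451 to 16880100 (7.65 kb). The chromosome 17 region sat in an HT H3K27me3 island of 26.55 kb, and SUDHL6 H3K27me3 began 7.8 kb away. The widest region with SUDHL6 H3K27me3, on chromosome 2 from 175190401 to 175208550 (18.15 kb), was covered by it over 4.13% only. On chromosome 11 from 116398651 to 116414700 (16.05 kb) the region sat in an HT H3K27me3 island of 43.35 kb, and SUDHL6 H3K27me3 covered 18.7% of it. Of the 5 widest regions with SUDHL6 H3K27me3, 4 were covered by it over 23.2% or less. The other, close to the tip of chromosome 1 (23701 to 36900, 13.2 kb), was covered over 55.7% and had H3K4me3 of both lines.

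The 10 regions of at least 1 kb with the highest EZH2 score per kb (32.1 to 41.5) were mostly narrow, from 1.05 to 6.3 kb, and none was among the 10 widest. SUDHL6 H3K4me3 was present at 7 of them, HT H3K4me3 at 1 and SUDHL6 H3K27me3 at 0. Over all 975 regions the shares were 29.9%, 14.6% and 26.6%, and over all autosomal HT EZH2 islands 39.8%, 33.9% and 20.2%. These 10 were chosen by score per kb, with which SUDHL6 H3K4me3 was already seen to rise. The region with the highest score per kb lay on chromosome 16 from 89004301 to 89007600. It was wholly under an HT H3K27me3 island of 7.5 kb, and SUDHL6 H3K4me3 covered 90.9% of it. Another on the same chromosome, from 89040001 to 89046300, had no SUDHL6 mark and sat in an HT H3K27me3 island of 24 kb. On chromosome 12 from 68042551 to 68044200, SUDHL6 H3K4me3 covered the whole region and HT H3K27me3 90.9% of it. On chromosome 5 from 77941651 to 77945250, the whole region lay in HT H3K27me3, SUDHL6 H3K4me3 covered 58.3% and the nearest SUDHL6 EZH2 was 19605 kb away.

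Most regions stood alone, and a few were packed in clusters. Another region lay within 100 kb of 223 of the 975, or 22.9% (20.3 to 25.6%). Counted among themselves, the 1244 HT-only islands without HT H3K27me3 stood at 27.3% (24.9 to 29.9%). The 249 EZH2 islands of both lines with HT H3K27me3 stood at 16.9% (12.4 to 22.1%). The shares thus followed the number of islands in a class, and the part of that number was not tested. The 223 regions formed 74 pairs and 21 clusters of 3 or more. The widest cluster held 6 regions over 210.2 kb of chromosome 17, from 46620301 to 46830450, where HT H3K27me3 covered 39.8% in 22 islands, SUDHL6 H3K27me3 4.93% in 4 islands, and no SUDHL6 EZH2 island was called. The next widest held 3 regions on chromosome 6 from 150183751 to 150338100 and 3 on chromosome 17 from 48044551 to 48195750. In the chromosome 17 cluster SUDHL6 H3K27me3 covered more of the span than that of HT, 40.5% against 23.9% for HT.

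The cluster with the most regions, chosen after its values were seen, held 9 over 104.25 kb of chromosome 12 from 54342601 to 54446850. The 9 regions were 4050 to 7650 bp wide, with scores per kb from 12.03 to 21.1, and made up 51.9 kb. HT H3K27me3 covered 89.4% of the span in 12 islands, of which the widest were 28.5 kb and 21.6 kb, and 1 H3K27me3 island held 3 of the regions. SUDHL6 H3K27me3 covered 11.8% in 5 islands of 1200 to 4350 bp and met 4 of the 9 regions. SUDHL6 EZH2 was called in the same span, in 3 islands over 11.1%, beneath 2 further HT EZH2 islands of 10650 and 12000 bp that therefore were not HT-only. No H3K4me3 island of either line lay in the span, and one of SUDHL6 began just past its end. EZH2 was thus called in both lines in this segment, over 71.5% of it in HT and 11.1% in SUDHL6.

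**Figure D5:**
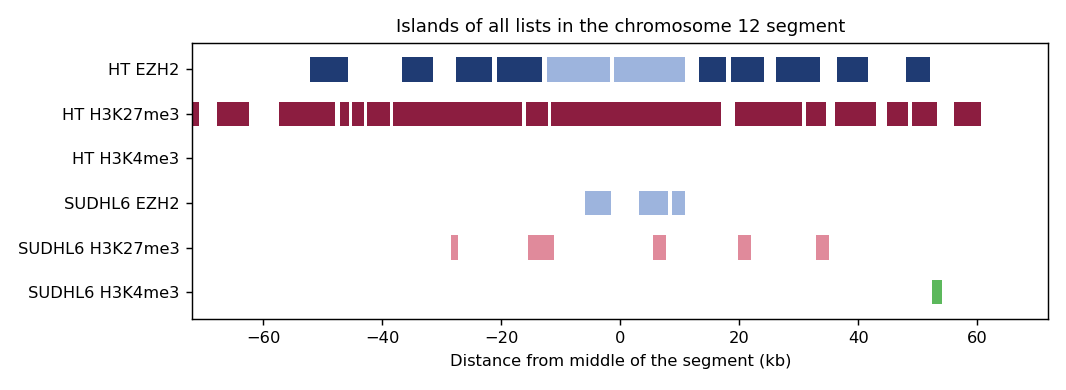
Islands of the 6 lists (rows) against distance from the middle of the chromosome 12 segment (x axis, kb), with the 9 HT-only EZH2 regions in dark blue and other EZH2 islands in light blue. HT H3K27me3 fills 89.4% of the segment, SUDHL6 H3K27me3 11.8%, and the SUDHL6 EZH2 islands lie near the middle, under the 2 HT EZH2 islands that are not HT-only.

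Clusters of 4 regions, likewise chosen after their values were seen, lay on chromosomes 2, 7 and 15. On chromosome 7 from 27196951 to 27238800, HT H3K27me3 covered 60.9% and SUDHL6 H3K27me3 19.7% of the span, and neither H3K4me3 nor SUDHL6 EZH2 was called. On chromosome 15 from 89901001 to 89923350, HT H3K27me3 covered 85.2% and no island of any SUDHL6 list was present. On chromosome 2 from 219699751 to 219850800, HT H3K27me3 covered 20.4% and SUDHL6 H3K27me3 8.04%, and 1 of the 4 regions had SUDHL6 H3K4me3. The regions were not assigned to genes, because gene positions on hg19 were not used here.

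Few regions lay close to the limits of the rule. The smallest overlap with HT H3K27me3 was 150 bp, found for example on chromosome 22 from 23019001 to 23020650, and 5 regions had 300 bp or less. Just outside, an HT-only EZH2 island on chromosome 1 from 155094001 to 155096700 abutted HT H3K27me3, and 9 HT-only islands came within 1 kb of it without overlap. On the other limit, the regions nearest to SUDHL6 EZH2 were 450, 600, 600, 750 and 900 bp from it, and 6 regions were within 1 kb. Just outside, EZH2 islands on chromosomes 1 and 19 overlapped SUDHL6 EZH2 by 150 bp each, and 3 such islands with HT H3K27me3 overlapped it by 450 bp or less.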

How the data were processed

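Per the submitters' processing notes, the authors called islands with SICER on hg19. By the deposited names the window was 150 bp, the gap 450 bp and the FDR 1E-7. Islands were called per library. The score of each island is the authors' deposited value. What it counts, the aligner, the control, the depth and the treatment of reads with several placements are not stated there or in the labels. The H3K27me3 names carry another normalization tag than the rest, so scores were not compared between lists. The 2 input samples were not used here.

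From these lists, autosomal islands were classed by overlap of 1 bp or more. Positions count from 1, and chromosome length was taken as the last island end of any list. Score per kb is the score divided by width. Overlap steps were tested on simulated islands. The widest regions, the highest scoring ones, those with the highest score per kb and those nearest the limits were named by a rule. That rule, the regions and the classes were chosen with earlier results of these data known. Python 3.11.15, numpy 2.4.6, pandas 2.3.3, scipy 1.17.1 and matplotlib 3.10.9 were used. No hg19 sequence or gene position was used here, so planned counts over gene families were not run. The alternatives tried were a 50% overlap, the 50% of islands with the highest scores, islands of at least 1 kb, joining within 5 kb, an HT EZH2 list as long as that of SUDHL6, SUDHL6 EZH2 within 10 kb counted as shared, and leaving out chromosome 1.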

Additional observations from a re-analysis of the deposited data

How the results depend on the processing

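No paired analysis was possible because each line and antibody had 1 library and no test was run. Across 7 alternatives, the share of regions in the outer 10 Mb (15.3 to 16.7%) stayed within the interval of the reported value. Of the HT H3K27me3 islands of 10 kb or wider, 15.4% (11.9 to 19.5%) held a region. The alternatives gave 13.2 to 16.2% for these islands, within that interval. With an overlap of 50% of the EZH2 island, the median coverage by HT H3K27me3 was 87.5%, and the shares with other marks were lower, at 16.6% for SUDHL6 H3K27me3, 4.57% for HT H3K4me3, 12.7% for SUDHL6 H3K4me3 and 10.3% for H3K4me3 of SUDHL6 alone. With each list limited to its 50% highest scores, there were 615 regions, with a median width of 4650 bp. The shares were 17.9% for SUDHL6 H3K27me3, 5.37% for HT H3K4me3 and 20.2% for SUDHL6 H3K4me3, and 18.5% had another region within 100 kb. SUDHL6 H3K4me3 lay on 19.2% of the HT H3K27me3 islands holding a region. The groups of highest and lowest score per kb differed in SUDHL6 H3K4me3 by 11.5 percentage points (0.655 to 22.1), against 22.3 as reported. That setting also shortens the lists to be met. With islands within 5 kb joined, the median coverage was 87.0%, 17.5% had another region within 100 kb and 30.9% of the HT H3K27me3 islands holding a region met SUDHL6 H3K4me3. With an HT EZH2 list as long as that of SUDHL6, the median width was 4350 bp and the shares were 29.9% for SUDHL6 H3K27me3, 35.0% for SUDHL6 H3K4me3, 21.1% for H3K4me3 of SUDHL6 alone and 31.7% of the HT H3K27me3 islands. Where no construction of the setting shows it, the cause was not tested. The contrast by score per kb, H3K4me3 of SUDHL6 alone and the share of HT H3K27me3 islands with SUDHL6 H3K4me3 were results chosen after the data were seen. SUDHL6 H3K4me3 was more frequent than HT H3K4me3 at the regions under each alternative. Unknown depth limits every statement on a missing island.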
